A study of Mus musculus with 15 samples.

Results

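Stimulation of A.E7 cells through the T cell receptor (TCR) in the presence of a protein kinase C (PKC) inhibitor was compared with stimulation through the TCR alone. The 6 arrays titled PKCi or Anergic were taken from the 15 arrays of the series, 3 on each side, with 1 array for each of the chip types A, B and C. A gene was kept where the brighter of its 2 values reached 4 times the floor of its chip type, and 5793 of 15964 genes (36.3%) met that minimum. The floor is the median of all values of the 5 arrays of a chip type (51.1, 69.5 and 55.0 on chip types A, B and C), and any value under it was set to it for the ratios.

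A.E7 is a clone of mouse CD4 T helper cells, so all arrays describe the descendants of a single T cell. The 5 treatments were mock stimulation, anti-TCR alone, anti-TCR with CSA (cyclosporin A, which blocks the phosphatase calcineurin), anti-TCR with the PKC inhibitor, and anti-TCR with Combo. Combo joined rapamycin, an inhibitor of mTOR, with PD98059, which blocks MEK, and SB203580, which blocks p38. Anti-TCR was thus common to every group but mock, and the labels give no name or dose for the PKC inhibitor. Each treatment gave a single pool of RNA from 2, 4 and 6 h, and the same pool went onto all 3 chip types, which carry different probe sets.

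Ligation of the TCR activates phospholipase C gamma, which makes diacylglycerol and an inositol phosphate that releases calcium. Diacylglycerol recruits PKC isoforms and the Ras activators of the RasGRP family to the membrane. In T cells PKC theta links the receptor to NF-kB, and RasGRP1 links it to the MAP kinase ERK, while calcium acts through calcineurin and the transcription factor NFAT.

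With 1 array per treatment and chip type no difference has a replicate check, and none was tested. Higher and lower are used for a ratio of at least 2-fold, with no p-value. The spread that could be measured was technical. Ratios of the same gene read on different chip types had an SD of 0.71 on the log2 scale over 867 pairs of probe sets, so a 2-fold difference is 1 unit on a scale whose technical SD is 0.71. The arrays of a chip type had been brought to a common level, with 17.4% to 23.0% of probe sets at or above the brightness minimum. The markers of T helper cells were present, with 8 of 9 measured and none 2-fold apart. None of 13 B cell markers and none of 11 erythroid and neutrophil markers was measured. Macrophage and dendritic cell markers reached the minimum for 2 of 18 genes (Cd14 and Ctss, log2 ratios -0.06 and 0.64). Of 8 CD8 T and NK cell markers 4 were measured, none 2-fold apart between the PKC inhibitor and anti-TCR alone. They were the NK receptor genes Klrd1 (1594 to 4063 over the 5 arrays), Klrc1 (968 to 1956), Klrk1 (371 to 1099) and Klre1 (360.0 to 1115), whereas Cd8a lay between 2.6 and 7.5.

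With the PKC inhibitor 827 of the 5793 measured genes were higher than with anti-TCR alone (14.3%) and 565 were lower (9.75%). Ratios of at least 4-fold were found for 149 genes higher (2.57%) and 181 lower (3.12%). The median log2 ratio of all measured genes was 0.03, with quartiles of -0.45 and 0.60. Gained genes were thus more numerous at 2-fold and lost genes more numerous at 4-fold. In bulk RNA fewer cells that carry a transcript and less of it per cell cannot be told apart. The genes nearest to 2-fold show how fine the boundary is. Acp1, at 253 against 126, counted as higher, whereas Pts, at 311 against 156, did not. Ppm1h, at 254 against 508, counted as lower, whereas Clcf1, at 222 against 443, did not.

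**Figure D1:**
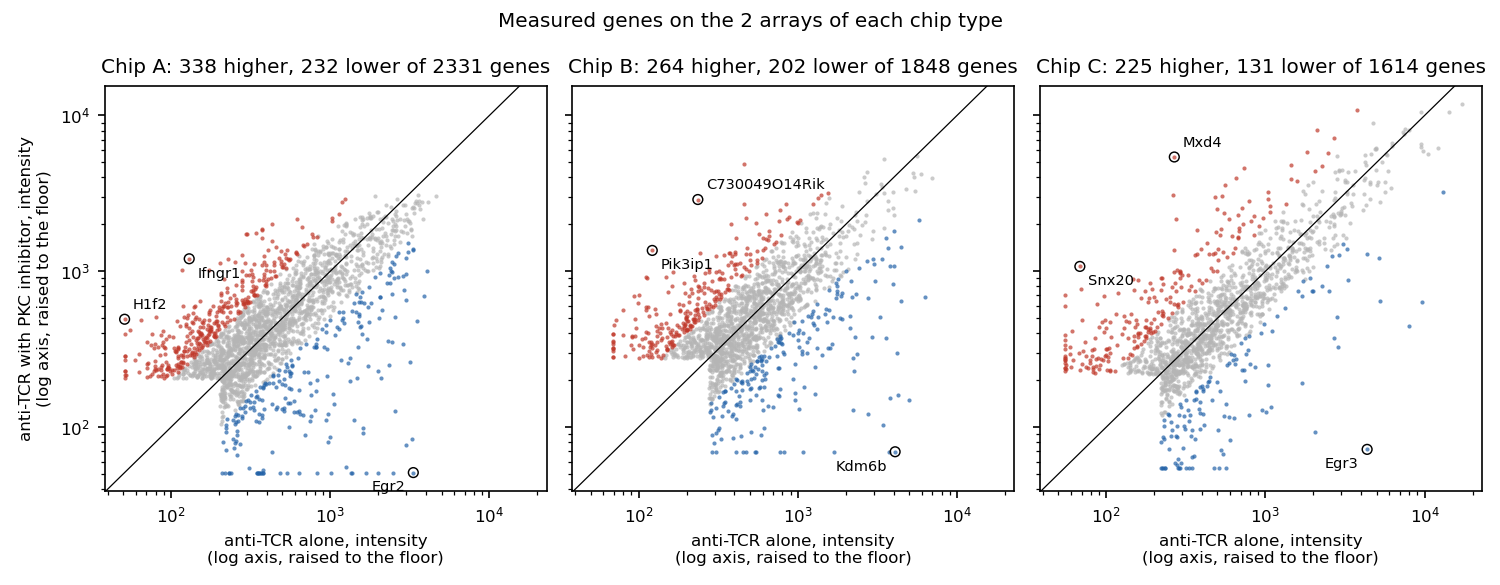
Intensity of each measured gene with the PKC inhibitor (vertical) against anti-TCR alone (horizontal), both on log axes and raised to the floor, in a panel for each chip type. Red points are genes at least 2-fold higher, blue points genes at least 2-fold lower and grey points the rest, the line marks equal values, and circled genes are the lowest and the 2 highest of each panel. Lost genes extend further from the line than gained genes, down to the floor.

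The 15 genes with the lowest ratios included many that TCR ligation is known to switch on early. Egr2 encodes a zinc finger factor of activated and anergic T cells. Its values were 43.8 in mock cells, 3325 with anti-TCR alone, 582 with CSA, 41.7 with the PKC inhibitor and 2116 with Combo, which put the PKC inhibitor array at least 65.1-fold lower. Only the PKC inhibitor array and the mock array lay below the floor for this gene. Egr3, the closest relative of Egr2, read 121, 4354, 2359, 72 and 3470.4 in the order mock, anti-TCR alone, CSA, PKC inhibitor and Combo, a value 60.5-fold lower with the PKC inhibitor. Kdm6b, a demethylase of histone H3, read 7.3, 4085, 2701, 4.4 and 1458 in the same order and was at least 58.8-fold lower. A further probe set that the annotation gives to Kdm6b and a second symbol read 3261 with anti-TCR alone and 26.7 with the PKC inhibitor. For all of these genes the CSA and Combo arrays lay between the PKC inhibitor and anti-TCR alone.

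Of 33 listed immediate early transcription factors on the arrays, 27 were measured. Lower values were found for 17 (63.0%, beside 9.75% of all measured genes) and higher values for 2 (7.41%, beside 14.3%), with a median log2 ratio of -1.67. The 3 orphan nuclear receptors of the Nr4a family were all lower. Nr4a1 read 64, 3002, 2244, 77.3 and 2205 in the same order and was 38.8-fold lower, but its second bright probe set had a log2 ratio of only -0.19. Nr4a3 read 74.4, 4965, 1160.2, 149 and 2676 and was 33.3-fold lower. Nr4a2 read 22.7, 2536, 122, 127 and 1245 and was 20-fold lower. Both bright probe sets passed 2-fold for Nr4a2 (log2 ratios -4.32 and -3.60) and for Nr4a3 (-5.06 and -2.18, which differ in size). Within the family only Nr4a1 had a bright probe set inside 2-fold. Further members are named here after their values were seen. Irf4, a factor that scales with TCR signal strength, read 206 with the PKC inhibitor and 2076 with anti-TCR alone. Nab2, a corepressor that binds Egr proteins, read 229 against 1987. Fos was at least 7.23-fold lower and Egr1 at least 6.76-fold lower. Ier2 was 2.46-fold lower at 1218, and Junb (i) 2.02-fold lower at 716, levels that stayed above the mock values of 427 and 142. A letter in brackets after a symbol marks a probe set that shares sequence with other transcripts or breaks a selection rule of the array's design.

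The 2 immediate early genes with higher values also read higher with CSA than with anti-TCR alone. Crem (s) encodes a modulator of cyclic AMP responsive transcription and read 76.7 in mock cells, 252 with anti-TCR alone, 722 with CSA, 1139 with the PKC inhibitor and 315 with Combo. It was 4.53-fold higher with the PKC inhibitor, and its 2 bright probe sets had log2 ratios of 1.91 and 2.18. Ier5l, an immediate early response gene, read 338 in mock cells, 264 with anti-TCR alone, 5812 with CSA, 3103 with the PKC inhibitor and 412 with Combo. It was 11.7-fold higher, with 2 bright probe sets at 1.80 and 3.55. Both genes were lower with anti-TCR alone and with Combo than on the CSA and PKC inhibitor arrays. For Crem, anti-TCR alone and Combo still lay above mock.

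**Figure D2:**
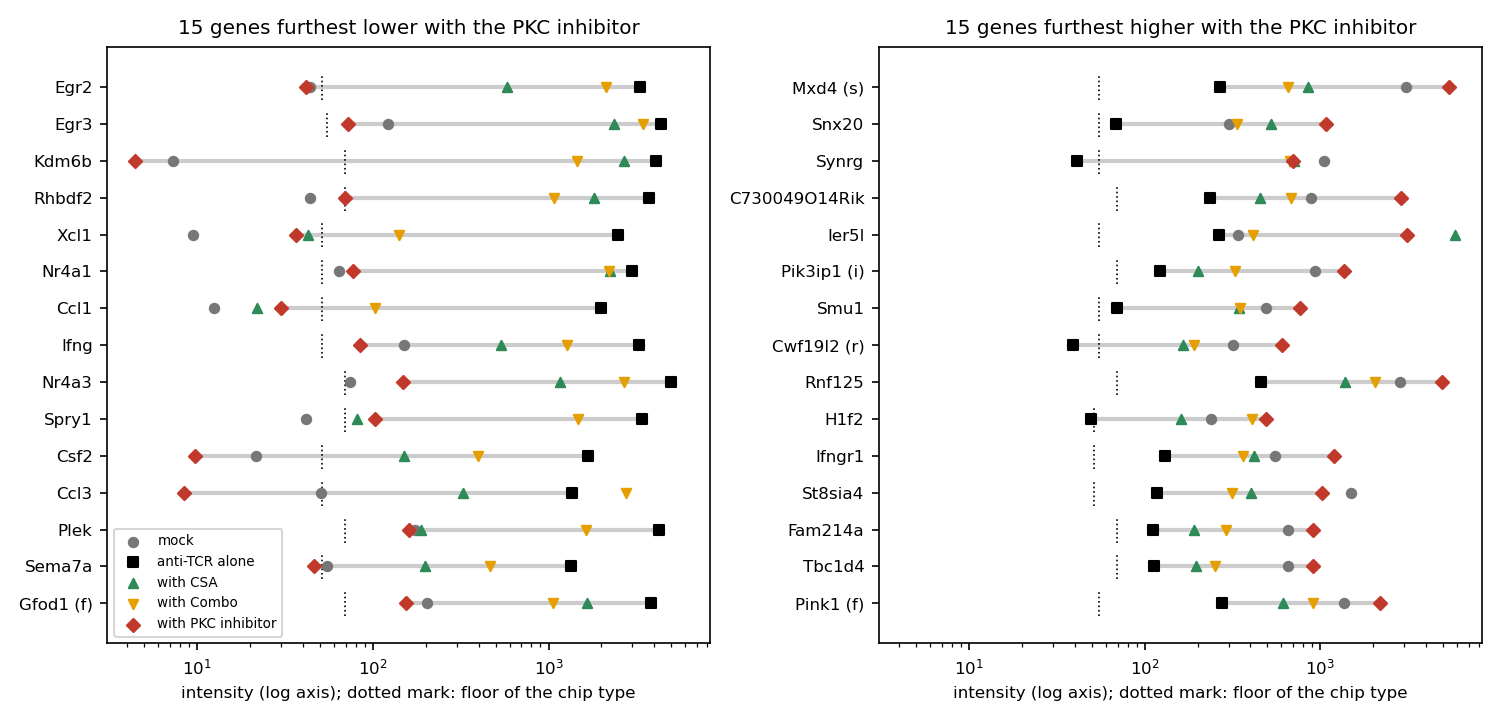
Intensity on a log axis of the 15 genes furthest lower (left) and the 15 furthest higher (right) with the PKC inhibitor, on 1 array per treatment. Symbols stand for the 5 treatments, the grey bar joins anti-TCR alone to the PKC inhibitor, and the dotted mark is the floor of the chip type. On the left the PKC inhibitor lies far below anti-TCR alone for every gene, and on the right anti-TCR alone is the lowest value of every gene. The genes were chosen by the ratio of these arrays, which favours both patterns.

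Among MAP kinase phosphatases and Sprouty genes, which damp ERK signalling, 5 of 9 measured members were lower (55.6%, beside 9.75% of all measured genes) and 2 higher (22.2%, beside 14.3%). Their median log2 ratio was -1.63, and -0.36 over all 16 on the arrays, without the brightness minimum. Spry1, an inhibitor of Ras signalling, read 41.7, 3428, 81.3, 103 and 1464 in the order mock, anti-TCR alone, CSA, PKC inhibitor and Combo and was 33.2-fold lower. Dusp6, the phosphatase specific for ERK, read 13.1, 634, 218, 12.1 and 432 and was at least 12.4-fold lower, with its second bright probe set at a log2 ratio of -1.69. Errfi1, a feedback inhibitor of EGF receptor signalling, was at least 7.41-fold lower. Dusp6 remained high with Combo, which contains the MEK inhibitor, and was below the floor with the PKC inhibitor. The 2 members with higher values were Dusp7, at 616 against 179.5, and Dusp1, at 239.9 against 95.2.

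Secreted products were mostly lower. Of 10 measured cytokines 7 were lower (70%, beside 9.75%) and 2 higher (20%, beside 14.3%), with a median log2 ratio of -2.51. Of 6 measured chemokines 5 were lower (83.3%) and none higher (median -4.06). Without the brightness minimum, which adds dimmer genes, these medians were -0.0041 and -0.743. Ifng, the signature cytokine of T helper 1 cells, read 151 in mock cells, 3261 with anti-TCR alone, 538 with CSA, 84.1 with the PKC inhibitor and 1273 with Combo. It was 38.8-fold lower and lay under its mock value. Csf2, a growth factor of granulocytes and macrophages, read 21.6, 1672, 151, 9.7 and 395 in the same order and was at least 32.7-fold lower. Lta (s), encoding lymphotoxin alpha, read 43.5, 1254, 145, 55.7 and 246 and was 22.5-fold lower. Among further cytokines, named after their values were seen, Il13 was at least 19.7-fold lower and Il5 at least 9.41-fold lower. Tgfb1, a suppressive cytokine, was 2.67-fold lower at 844, still above the 178 of mock cells.

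Tnf went the other way. It read 334 in mock cells, 133 with anti-TCR alone, 892 with CSA, 341 with the PKC inhibitor and 1786 with Combo, so that anti-TCR alone gave the lowest value of the 5 and the PKC inhibitor array was 2.57-fold higher. Il16, a chemoattractant of CD4 cells, was also higher, at 234 against 86.9. Of the 20 listed cytokines on the arrays 10 did not reach the minimum, among them Il2, with at most 2.6 on any array.

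Xcl1, which attracts dendritic cells that carry XCR1, read 9.5, 2472, 42.8, 36.3 and 141 in the order mock, anti-TCR alone, CSA, PKC inhibitor and Combo and was at least 48.4-fold lower. Ccl1, the ligand of CCR8, read 12.4, 1983, 21.9, 30 and 102 and was at least 38.8-fold lower, with both bright probe sets past 2-fold. Ccl3 and Ccl4, both inflammatory chemokines, separated the inhibitors. Ccl3 read 50.5, 1363, 328, 8.4 and 2749.5 in the same order and was at least 26.7-fold lower. Ccl4 read 133, 237, 2171, 29.6 and 2571 and was at least 4.64-fold lower. For both genes Combo gave the highest value of the 5 arrays. The PKC inhibitor gave the lowest for Ccl4, whereas for Ccl3 it and mock both lay below the floor, where values have no order. The CSA array was close to Combo for Ccl4 and well below it for Ccl3.

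Of 4 measured TNF family ligands 3 were lower (75%, beside 9.75%) and none higher, with a median log2 ratio of -1.97 (-1.23 without the minimum). Tnfsf11 (RANK ligand) read 352 with the PKC inhibitor and 2435 with anti-TCR alone. Tnfsf9, the ligand of 4-1BB, read 109 against 741, and Fasl, which triggers apoptosis through Fas, 679 against 1534. Cd40lg, the ligand that helps B cells, did not reach the minimum, at 3.4 in mock cells, 124 with anti-TCR alone, 4.2 with CSA, 2.6 with the PKC inhibitor and 77.9 with Combo.

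The receptors moved in both directions. Of 13 measured activation and inhibitory receptors 5 were lower (38.5%, beside 9.75% of all measured genes) and 1 higher (7.69%, beside 14.3%), with a median log2 ratio of -0.71. Cd274 (PD-L1) read 172 in mock cells, 2229 with anti-TCR alone, 1510.4 with CSA, 128 with the PKC inhibitor and 485 with Combo and was 17.4-fold lower. Lag3, an inhibitory receptor for MHC class II, was 5.27-fold lower, and Pdcd1 (PD-1), named after its value was seen, 4.97-fold lower. Ctla4, the inhibitory rival of CD28, read 659.6 in mock cells, 373 with anti-TCR alone, 171 with CSA, 1628 with the PKC inhibitor and 732 with Combo. It was 4.36-fold higher, the opposite direction to Lag3 and Pdcd1, and its PKC inhibitor value was the highest of the 5 arrays.

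Of 11 measured cytokine receptors 4 were higher (36.4%, beside 14.3% of all measured genes) and 2 lower (18.2%, beside 9.75%), with a median log2 ratio of 0.09. Ifngr1, the ligand-binding chain of the interferon gamma receptor, read 551 in mock cells, 130.1 with anti-TCR alone, 418 with CSA, 1203 with the PKC inhibitor and 364 with Combo. It was 9.25-fold higher, with the PKC inhibitor array again the highest. Il4ra was 3.55-fold higher, at 324 against 91.2. Il7r, which carries survival signals in resting T cells, was 2.37-fold higher, at 1164 against 492 and 2215 in mock cells. Lower values were found for Il18rap, an accessory chain of the interleukin 18 receptor, at 126 against 595, and for Il10ra, at 31.2 against 219. In JAK and STAT signalling 3 of 13 measured genes were higher (23.1%) and 4 lower (30.8%), with a median of 0.02. Cish, a suppressor induced by STAT5, was 6.80-fold lower, and Stat5b was 3.23-fold higher. Socs2, a suppressor of growth hormone signalling, was 2.24-fold higher with both bright probe sets past 2-fold.

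Of 24 genes of PKC isoforms and diacylglycerol signalling on the arrays 15 were measured, with 3 higher, 1 lower and a median log2 ratio of -0.09. Shares of 20% and 6.67% lay near the 14.3% and 9.75% of all measured genes. Prkch, encoding PKC eta, read 1148 in mock cells, 3663 with anti-TCR alone, 1446 with CSA, 1411 with the PKC inhibitor and 1671 with Combo. It was 2.60-fold lower, with both bright probe sets past 2-fold. The other measured PKC isoforms stayed within 2-fold, with log2 ratios of -0.90 for Prkci, -0.35 for Prkcz, -0.26 for Prkce, -0.09 for Prkcb and 0.43 for Prkcd. Prkcq, encoding PKC theta, did not reach the minimum, at 276 in mock cells, 190.4 with anti-TCR alone, 113 with CSA, 177 with the PKC inhibitor and 198 with Combo.

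Dgka, the kinase that consumes diacylglycerol, read 302 in mock cells, 125 with anti-TCR alone, 74 with CSA, 352 with the PKC inhibitor and 140.3 with Combo and was 2.82-fold higher. Dgkz, which does the same, read 934 against 1592, a log2 ratio of -0.77. Plcg1, which makes diacylglycerol, was 2.13-fold higher, at 428 against 201. Rasgrp2 (s) was 2.22-fold higher, but its second bright probe set was at a log2 ratio of 0.49. Rasgrp1 had a log2 ratio of -0.78, with its second bright probe set at 0.68. Among the kinases of the ERK cascade and Ras, log2 ratios were -0.56 for Map2k2, 0.62 for Map2k1 and 0.12 for Nras. The protein kinase D gene Prkd2 had a log2 ratio of 0.27.

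Of the NF-kB activators and subunits 11 were measured, 1 higher and 1 lower (9.09% each, beside 14.3% and 9.75%), with a median log2 ratio of -0.35. Malt1, a protease on the way from the receptor to NF-kB, read 1293 in mock cells, 2912 with anti-TCR alone, 2009 with CSA, 1270.5 with the PKC inhibitor and 1919 with Combo and was 2.29-fold lower, close to its mock value. Map3k14 (NIK), the kinase of the alternative NF-kB route, was 2.76-fold higher, at 1287 against 466. The subunits Relb and Nfkb2 passed 2-fold in neither direction. Relb read 75.7, 425, 293, 256 and 525 in the order mock, anti-TCR alone, CSA, PKC inhibitor and Combo, a log2 ratio of -0.73, and Nfkb2 read 79.1, 436, 188, 310.5 and 657, a log2 ratio of -0.49. Both lay well above mock on the PKC inhibitor array and inside 2-fold of anti-TCR alone. Rela had a log2 ratio of -0.66, though its second bright probe set stood at 1.5. The remaining measured members, Traf6 (-0.64), Traf2 (i) (-0.35), Bcl10 (-0.20), Map3k7 (-0.05), Ikbkb (0.59) and Tab2 (0.64), were within 2-fold on the log2 scale given in brackets.

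NF-kB inhibitors and targets split. Of 15 measured genes 5 were lower (33.3%, beside 9.75%), 2 higher (13.3%, beside 14.3%) and 8 within 2-fold, with a median log2 ratio of -0.85. The lower genes included 3 atypical members of the IkB family, which act on NF-kB in the nucleus. Nfkbid read 575 in mock cells, 6298 with anti-TCR alone, 2553 with CSA, 679.9 with the PKC inhibitor and 3168 with Combo and was 9.26-fold lower. Nfkbiz read 35, 378, 699.9, 36.5 and 136 in the same order and was at least 7.39-fold lower, while its CSA value was the highest of the 5. Bcl3 read 52, 762, 356, 160.0 and 829 and was 4.76-fold lower. Ier3, a stress response gene, was 7.34-fold lower, and Gadd45b (f), a regulator of p38 and JNK signalling, 6.90-fold lower with both bright probe sets past 2-fold.

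The classical inhibitors did not follow them. Nfkbia (f), encoding IkB alpha, read 9439, 14305, 9715, 10479 and 7899 in the order mock, anti-TCR alone, CSA, PKC inhibitor and Combo, a log2 ratio of -0.45. Its log2 ratio on a second chip type was -0.75. Nfkbib read 135, 508, 225, 435 and 519.5, a log2 ratio of -0.22. Tnfaip3 (A20), the ubiquitin editing enzyme that ends NF-kB signalling, read 4.9, 199, 147, 589 and 647 and was 2.96-fold higher. Its PKC inhibitor and Combo values were the highest, and mock the lowest. Birc2, an inhibitor of apoptosis, was 2.16-fold higher. Log2 ratios of the others were -0.997 for Cflar, -0.89 for Tnip2, -0.85 for Bcl2l1, 0.24 for Tnip1, 0.69 for Irf1 and 0.78 for Traf1.

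**Figure D3:**
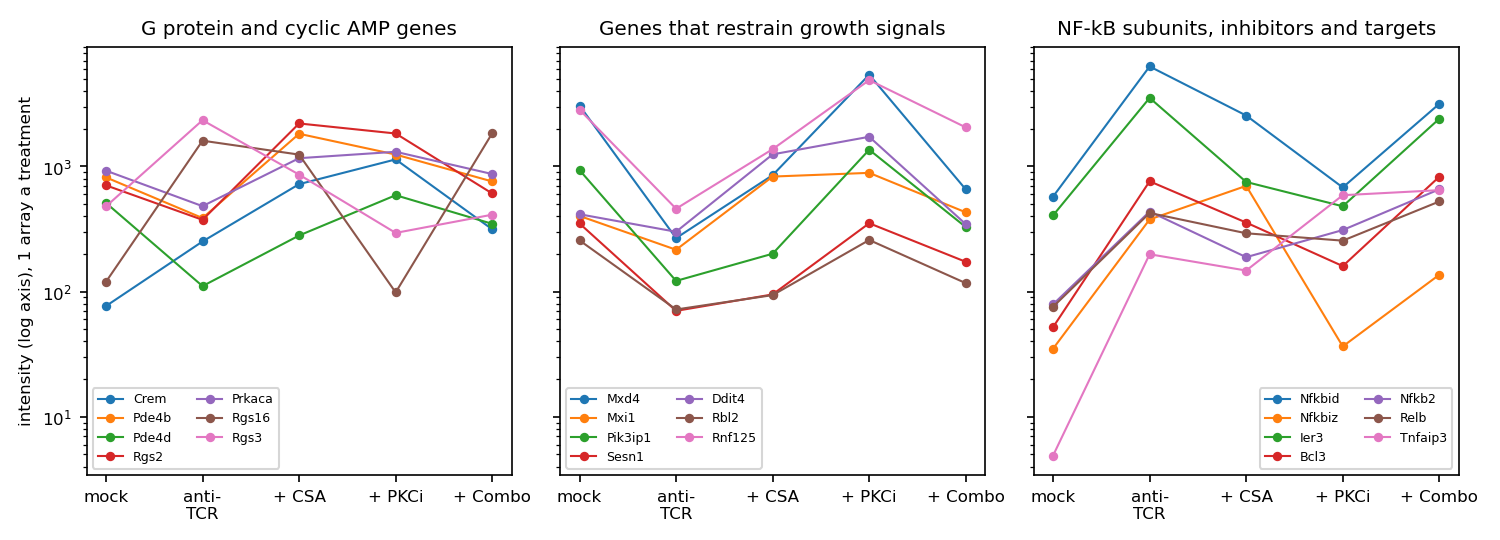
Intensity on a log axis across the 5 treatments, 1 array each, for genes of G protein and cyclic AMP signalling, genes that restrain growth signals, and NF-kB genes, all picked as examples after their values were seen. Lines join the values of a gene and imply no order of the treatments. In the right panel Nfkbid, Nfkbiz, Ier3 and Bcl3 drop with the PKC inhibitor while Nfkb2, Relb and Tnfaip3 lie above mock.

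In the TCR complex and proximal signalling 3 of 16 measured genes were lower and 2 higher (18.8% and 12.5%, beside 9.75% and 14.3% of all measured genes), with a median log2 ratio of -0.47. Lcp2 (SLP-76), the adaptor that gathers phospholipase C gamma, read 651 in mock cells, 2879 with anti-TCR alone, 509.9 with CSA, 344 with the PKC inhibitor and 1175 with Combo and was 8.38-fold lower. Fyn, a Src family kinase, was 4.05-fold lower, at 1002 against 4059. Zap70 (s) was 2.07-fold lower, with the lowest of its 3 bright probe sets at a log2 ratio of -1.05 and the highest at -0.59. Pag1, the membrane adaptor that recruits the inhibitory kinase Csk, was 3.40-fold higher. For Lcp2 and Fyn the PKC inhibitor array lay below mock.

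Among calcineurin and NFAT pathway genes 2 of 15 measured were higher and 1 lower (median 0.47), shares of 13.3% and 6.67% that lay near the 14.3% and 9.75% of all measured genes. Nfatc1, which is induced by its own product, read 342 in mock cells, 2236 with anti-TCR alone, 223 with CSA, 277 with the PKC inhibitor and 820.2 with Combo. It was 8.08-fold lower, and its 3 bright probe sets ranged from -3.95 to -1.63. Nfatc3 was 2.59-fold higher and Camk4 2.24-fold higher. Genes tied to anergy and negative regulation numbered 24 measured, of which 10 were lower (41.7%, beside 9.75%) and 4 higher (16.7%, beside 14.3%; median -0.76), with Egr2, Egr3, Nr4a1, Nfatc1 and Lag3 among the lower. Cblb, a ubiquitin ligase named after its value was seen, was 2.64-fold lower, with its second bright probe set at a log2 ratio of -0.94. The 4 with higher values were Ctla4, Dgka, Rgs2 and Nedd4, a ubiquitin ligase that read 271, 60.8, 396, 412 and 188 in the order mock, anti-TCR alone, CSA, PKC inhibitor and Combo and was 6.77-fold higher.

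The 15 genes with the highest ratios all had their lowest value with anti-TCR alone. They were chosen by their ratio to that array, and the choice itself favours genes with a low value there. Mxd4 (s), a repressor that competes with Myc for its partner Max, had the highest ratio of all measured genes. It read 3068 in mock cells, 268 with anti-TCR alone, 853 with CSA, 5412 with the PKC inhibitor and 656 with Combo and was 20.2-fold higher, and its 3 bright probe sets had log2 ratios between 2.07 and 4.34. Rnf125, a ubiquitin ligase, read 2843 in mock cells, 459.6 with anti-TCR alone, 1376 with CSA, 4899 with the PKC inhibitor and 2053 with Combo. It was 10.7-fold higher, with 2 bright probe sets at 3.41 and 4.34. In both genes the PKC inhibitor array was the highest and anti-TCR alone the lowest of the 5.

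Others among the 15 highest were Snx20, a sorting nexin, at 1074 against 68.3 and Synrg, which binds a clathrin adaptor, at 699 against 41. St8sia4, a polysialic acid transferase, read 1016 against 118, and Tbc1d4, a regulator of glucose transporter traffic, 903 against 114. Pink1 (f), a kinase of mitochondrial quality control, was 7.90-fold higher, with bright probe sets at 1.35 and 2.98. The linker histone gene H1f2 was at least 9.64-fold higher. Cwf19l2 (r) was at least 11.0-fold higher, Fam214a 8.23-fold higher and C730049O14Rik 12.3-fold higher. Smu1, a splicing factor, was 11.0-fold higher, but its second bright probe set had a log2 ratio of -0.26, so its probe sets disagree.

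Of 12 measured genes of PI3 kinase, mTOR and their brakes 4 were higher and 1 lower (33.3% and 8.33%, beside 14.3% and 9.75% of all measured genes), with a median log2 ratio of 0.56. Pik3ip1 (i), which inhibits PI3 kinase, read 936 in mock cells, 122 with anti-TCR alone, 201 with CSA, 1361 with the PKC inhibitor and 328 with Combo. It was 11.2-fold higher, with bright probe sets at 2.99 and 3.48. Ddit4 (REDD1), an inhibitor of mTOR complex 1, read 415, 301, 1249.7, 1727 and 346 in the same order and was 5.74-fold higher. Sesn1, another brake on mTOR complex 1, read 351, 70.2, 95, 352 and 173 and was 5.01-fold higher. The gene Sesn2 (i), of the same family, went the other way, at 149 against 459.8. Pik3ip1 and Sesn1 were within 2-fold of their mock values, whereas Ddit4 lay far above mock with both CSA and the PKC inhibitor.

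Quiescence genes gave 4 higher (33.3%, beside 14.3% of all measured genes) and none lower of 12 measured (median 0.33). Besides Mxd4 and Il7r these were Mxi1, a relative of Mxd4, which was 4.12-fold higher, and Slfn1, which restrains T cell growth in mice and was 2.51-fold higher. Of 16 measured genes of cell cycle entry and DNA replication 2 were higher (12.5%, beside 14.3%) and 4 lower (25%, beside 9.75%), with a median of -0.13. Rbl2 (p130), a pocket protein of resting cells, was 3.59-fold higher, at 259 against 72, and the inhibitor Cdkn2d 2.50-fold higher. The inhibitor Cdkn1a (p21) went the other way, 4.02-fold lower with both bright probe sets past 2-fold, and Ccnd2, encoding cyclin D2, was 2.93-fold lower. Mitosis genes were mostly too dim, with 3 of 25 measured. Among them Kif15 (f), a spindle motor, was 22.6-fold lower with all 3 bright probe sets past 2-fold.

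G protein regulators and cyclic AMP genes had the highest median of the functional lists, 0.99. Of 21 measured members 10 were higher (47.6%, beside 14.3%) and 2 lower (9.52%, beside 9.75%). Pde4d, which degrades cyclic AMP, read 512 in mock cells, 111 with anti-TCR alone, 281 with CSA, 589.5 with the PKC inhibitor and 348 with Combo and was 5.33-fold higher. Rgs2, which damps Gq signalling, read 707, 375, 2207, 1835 and 608 in the same order and was 4.90-fold higher. Crem was the third of the leading members, as given above. Others with higher values, named after they were seen, were Pde4b (3.22-fold higher, both bright probe sets past 2-fold), Prkaca (f), the catalytic subunit of protein kinase A (2.72-fold higher), Rgs14 (2.75-fold higher) and the arrestin gene Arrb2 (2.32-fold higher). On a second chip type Prkaca had a log2 ratio of only 0.54, inside 2-fold. Rgs10 was 3.21-fold higher, but its second bright probe set stood at -0.07. The 2 lower members were regulators of G protein signalling as well. Rgs16 read 119.8, 1607, 1244, 98.6 and 1844 and was 16.3-fold lower, with its second bright probe set at -5.80, and Rgs3 was 7.95-fold lower.

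Of 15 measured apoptosis genes 6 were higher (40%, beside 14.3%) and 1 lower (6.67%, beside 9.75%), with a median of 0.57. Pdcd4, an inhibitor of translation, was 2.80-fold higher, at 916 against 327 and 1432 in mock cells. Apaf1, the scaffold of the apoptosome, was 2.77-fold higher. Mcl1 (f), a survival factor of the Bcl2 family, was 2.68-fold higher, with a log2 ratio of 0.86 on a second chip type. The higher group thus held both promoters and inhibitors of cell death. Of 13 measured genes of interferon response and antigen processing 5 were higher (38.5%) and 3 lower (23.1%), with a median of 0.69. Tap1, the peptide transporter of MHC class I loading, was 2.97-fold higher, and the immunoproteasome subunit Psmb9 2.67-fold higher. Irf8, an interferon regulatory factor, was 12.6-fold lower, at 112 against 1404, and H2-K1 (f), a class I heavy chain, 2.39-fold lower with 1 of its 3 bright probe sets at -0.23.

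Adhesion and migration genes gave 3 higher (21.4%, beside 14.3%) and 1 lower (7.14%, beside 9.75%) of 14 measured, with a median of 0.22. Cxcr4, the receptor for CXCL12, was at least 4.06-fold higher, at 208 against 36.7, and Cd47 was 2.34-fold higher with both bright probe sets past 2-fold. Itgb2, the beta chain of LFA-1, was 2.42-fold lower. Of 7 measured Gimap GTPases, which act in lymphocyte survival, Gimap7 was 2.39-fold higher and Gimap5 3.52-fold lower, a share of 14.3% in each direction (median -0.36).

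Several biosynthetic groups held more lower than higher genes. Among 28 measured genes of nucleolar ribosome biogenesis 12 were lower and none higher (42.9%, beside 9.75%), with a median log2 ratio of -0.97. Nop58 (f), a core protein of box C/D particles, was 5.43-fold lower, at 101 against 547 and 217 in mock cells. Tsr1, a maturation factor of the small subunit, was 5.04-fold lower. The brightest genes also stood somewhat lower. The eighth of genes with the highest mean level had a median log2 ratio of -0.13, 21 measured cytosolic ribosomal protein genes had a median of -0.49 with 2 lower, and 11 housekeeping genes a median of -0.62 with 1 lower. The highest value on chip type A was 3096 with the PKC inhibitor and 4587 with anti-TCR alone. After quantile normalization the ribosomal protein median was -0.18, and over all alternatives the nucleolar median stayed between -0.98 and -0.86. The part of this shift in the groups of biosynthesis, metabolism and chaperones was not tested.

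Of 19 measured genes of the Atf4 and amino acid response 8 were lower (42.1%, beside 9.75%) and 1 higher (5.26%, beside 14.3%), with a median of -0.87. Slc7a5, a transporter of large neutral amino acids, was 6.39-fold lower, at 164 against 1046, and Chac1, which degrades glutathione, 6.56-fold lower. Asns, asparagine synthetase, was 4.76-fold lower, with its second bright probe set at -0.84. Slc1a5 (f), a glutamine transporter, was the member with a higher value, 3.84-fold higher, but its 3 bright probe sets ran from -2.11 to 1.94. Its direction is reversed when suffixed probe sets are left out (-2.11) or when the bright probe sets are averaged (-0.44), so Slc1a5 has no settled direction here.

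Glycolysis genes gave 6 lower (42.9%, beside 9.75%) and 2 higher (14.3%, as for all measured genes) of 14 measured, with a median of -0.86. Pfkp (g), a phosphofructokinase, was 4.81-fold lower with all 3 bright probe sets past 2-fold, Tpi1 was 3.15-fold lower and Pgk1 2.38-fold lower. Pdk1, the kinase that keeps pyruvate out of mitochondria, was 3.95-fold higher, at 354 against 89.6. Sterol and fatty acid synthesis gave 4 lower (26.7%) and 1 higher (6.67%) of 15 measured, with a median of -0.66. Idi1, of the mevalonate pathway, read 194 in mock cells, 378 with anti-TCR alone, 892 with CSA, 52.8 with the PKC inhibitor and 85.9 with Combo and was 7.16-fold lower. Hmgcs1, which acts before it, read 335, 514, 1198, 128 and 341 in the same order and was 4.03-fold lower, and Cyp51 was at least 4.42-fold lower. In all of these sterol genes CSA gave the highest value of the 5 arrays and the PKC inhibitor the lowest.

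Heat shock genes and chaperones had 7 lower (36.8%, beside 9.75%) and none higher (beside 14.3%) of 19 measured, with a median of -0.85. Hspa1b was 7.50-fold lower, and the mitochondrial chaperone Hspa9 2.62-fold lower. In the actin cytoskeleton 4 of 26 measured genes were lower (15.4%) and none higher (median -0.26), led by the tropomyosin gene Tpm4, 3.75-fold lower, and by Capg, 3.52-fold lower. The Myc network and polyamine synthesis gave 2 higher (Mxd4 and Mxi1) and 2 lower of 8 measured, 25% each (median 0.29). Srm (f), which makes spermidine, was 4.48-fold lower, but its second bright probe set was at 0.11, and Azin1, which spares ornithine decarboxylase, was 3.76-fold lower. Myc did not reach the minimum, at 126 in mock cells, 143 with anti-TCR alone, 152 with CSA, 66 with the PKC inhibitor and 192 with Combo.

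Effector genes and T helper factors had 7 lower (50%, beside 9.75%) and 1 higher (7.14%, beside 14.3%) of 14 measured. Their median was -0.69, and 0 without the minimum. Srgn, the proteoglycan of secretory granules, was 7.11-fold lower, at 207 against 1471. Gzma (s), a granule protease, read 2045 in mock cells, 3854 with anti-TCR alone, 1787 with CSA, 689.7 with the PKC inhibitor and 748 with Combo and was 5.59-fold lower. Its values with the PKC inhibitor and with Combo were both below mock. Gzmb, named after its value was seen, was 4.05-fold lower. Stat4, which transmits interleukin 12 signals, was 2.08-fold higher.

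The brightness minimum bears on several other list medians. Without it the medians of quiescence, apoptosis, adhesion and cytokine receptor genes were 0, that of interferon response genes was 0.03 and that of PI3 kinase and mTOR genes 0.01. Medians of 0.88 for G protein regulators and cyclic AMP genes, -0.86 for nucleolar genes and -1.11 for immediate early factors were found in the same setting.

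**Figure D4:**
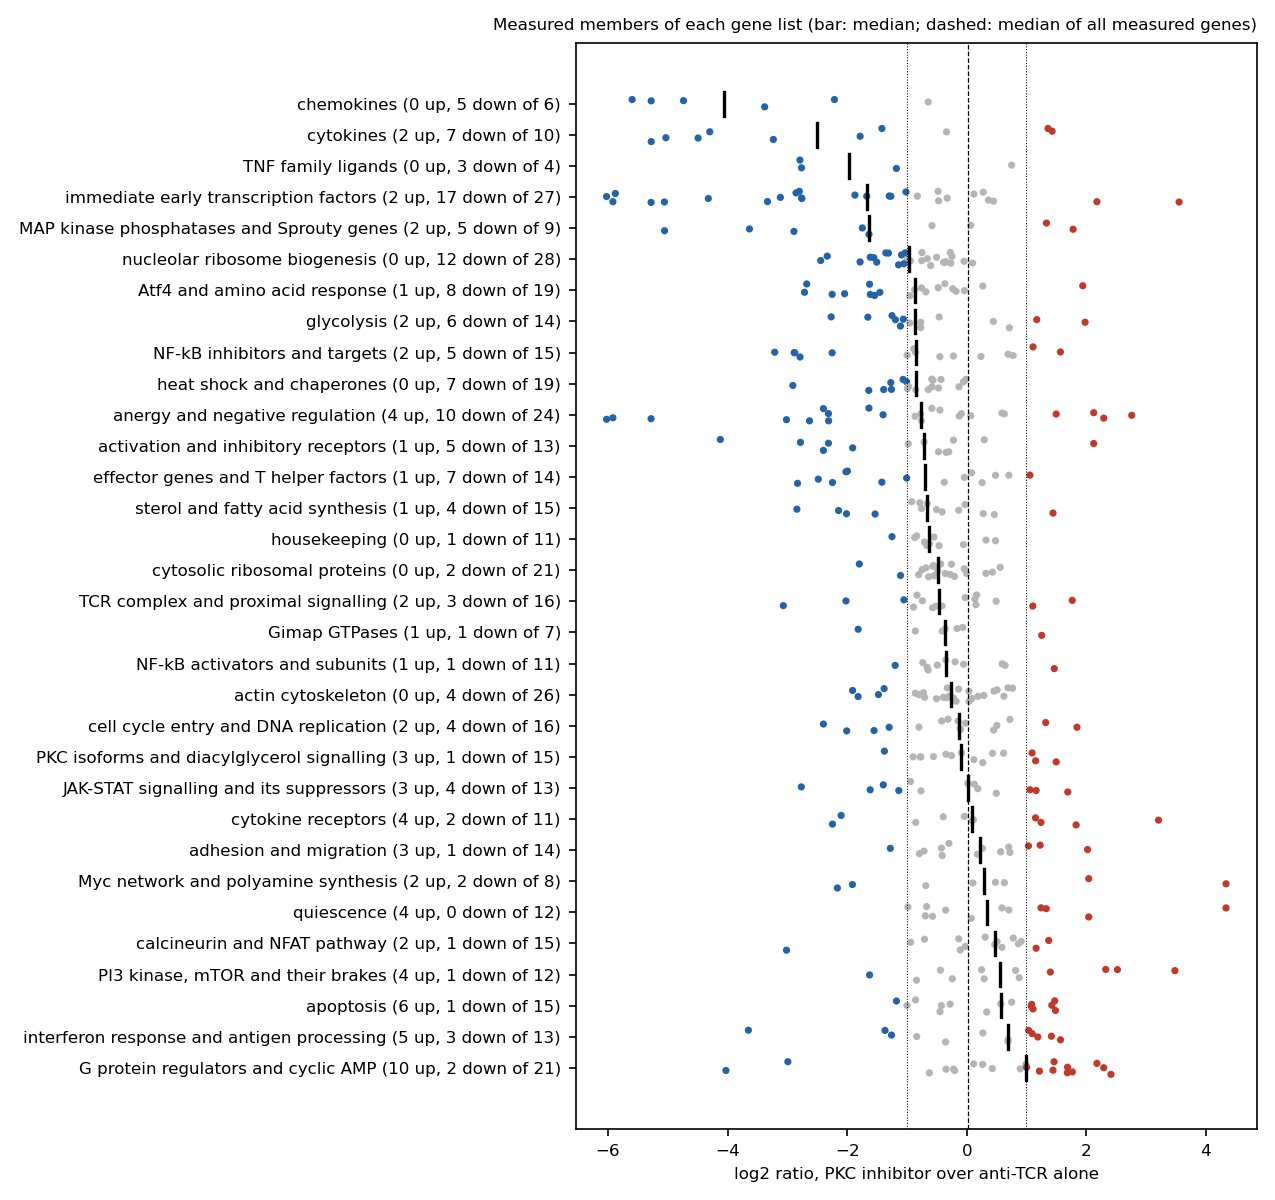
Log2 ratio of PKC inhibitor over anti-TCR alone for the measured members of each gene list with 4 or more measured members, ordered by median. Points are genes (red at least 2-fold higher, blue at least 2-fold lower, grey the rest; vertical scatter is for display), bars are list medians, the dashed line is the median of all measured genes and dotted lines mark 2-fold. Chemokines and cytokines have the lowest medians and G protein and cyclic AMP genes the highest.

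Probe sets of the same gene were compared to see how far the calls repeat. By probe set, 1202 of 8848 bright probe sets were higher (13.6%) and 932 lower (10.5%). Among 1137 bright probe sets with no gene symbol the shares were 8% higher and 10.5% lower. Of the 1266 genes with 2 or more bright probe sets, 834 (65.9%) had all of them on the same side of 0. Among 163 gained genes all bright probe sets had log2 ratios above 0 in 127 (77.9%) and past 2-fold in 68 (41.7%). Among 129 lost genes all lay below 0 in 111 (86.0%) and past 2-fold in 71 (55.0%). Over all 1266 genes the shares with every bright probe set past 2-fold were 5.37% higher and 5.61% lower. These shares are not independent of the calls, since the probe set that made the call is among those counted.

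Agreement was closer for larger ratios. Every bright probe set was past 2-fold in 22 of 31 genes gained at least 4-fold and in 40 of 50 genes lost at least 4-fold. Genes with every bright probe set past 2-fold lower, beside those given above, included Wnt10b (i), a Wnt ligand, at 442 against 7939. Ifih1 (MDA5), a sensor of double-stranded RNA, read 137, 2050.5, 152, 93.3 and 276 in the order mock, anti-TCR alone, CSA, PKC inhibitor and Combo and was 22-fold lower. Plek, a PKC substrate of blood cells, read 173, 4274, 189, 161 and 1633 and was 26.6-fold lower. Penk (f), the precursor of enkephalins, was 15.2-fold lower, with its 3 bright probe sets between -3.93 and -1.05. Gfod1 (f) was 24.8-fold lower, Mmd at least 24.3-fold lower, Trib1, a pseudokinase, 9.81-fold lower, Ipcef1 at least 15.4-fold lower and Sema7a, a semaphorin, at least 26.2-fold lower. CSA left Ifih1 and Plek low as well, and left Penk high, at 8211 against 9669.

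Among gained genes with every bright probe set past 2-fold were Mknk2, a kinase of the translation factor eIF4E, at 1856 against 375 and D16Ertd472e, 5.89-fold higher with 4 bright probe sets between 2.13 and 2.56. Lrrc8d (f), a subunit of volume-regulated anion channels, was 6.33-fold higher, and Dgat1, the last enzyme of triglyceride synthesis, 3.66-fold higher. Rhoq, a small GTPase, was 4.05-fold higher, Abhd8 5.86-fold higher, Zfp53 5.10-fold higher, Gramd3 (f) 4.96-fold higher, Prxl2c (f) 7.43-fold higher and Ptov1 (s) 6.36-fold higher. Rhbdf2, an inactive rhomboid protein that controls TNF release, had 1 bright probe set and was at least 53.7-fold lower.

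A reading on another chip type uses another array of the same RNA pool and does not share the probe set that made the call. For 779 genes on 2 or more chip types, 15.3% of second readings were higher and 11.6% lower. Of 97 genes called higher on the chip type with the brighter probe set, 43 (44.3%) were higher on the second chip type and 2 lower, and the median log2 ratio went from 1.36 to 0.76. Of 74 genes called lower, 43 (58.1%) were lower on the second chip type and 2 higher, and the median went from -1.65 to -1.11. Among genes lost at least 4-fold 21 of 28 (75%) were lower again and none was higher, and among genes gained at least 4-fold 10 of 16 (62.5%) were higher again and none lower. The second readings also show the other treatments, all against the same anti-TCR array and so not independent of each other. For the 74 lost genes their median log2 ratios over anti-TCR alone were -1.33 for mock, -0.47 for CSA, -1.11 for the PKC inhibitor and -0.59 for Combo. For the 97 gained genes they were 0.29 for mock, 0.30 for CSA, 0.76 for the PKC inhibitor and 0.44 for Combo.

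**Figure D5:**
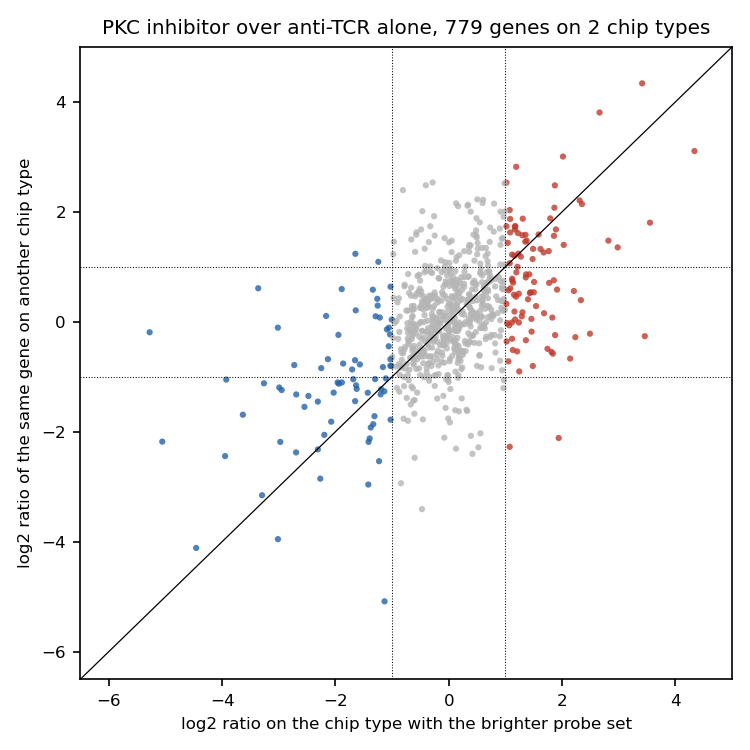
Log2 ratio of PKC inhibitor over anti-TCR alone for 779 genes read on 2 chip types, with the reading of the brighter probe set on the horizontal axis and the reading on another chip type on the vertical axis. Red and blue points were at least 2-fold higher or lower by the first reading, dotted lines mark 2-fold and the diagonal marks equal ratios. The medians of the second readings of called genes lie nearer to 0 than those of the first, while single genes such as Rnf125 lie further out, and 2 genes of each colour pass 2-fold in the other direction.

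Promoter sequence was drawn for 4 genes whose every bright probe set passed 2-fold, the 2 highest and the 2 lowest that the RefSeq promoter table (GRCm38.p6) holds, to show the bases before the start of a gained and a lost gene. Rnf125 and Egr3 are not among them. Each window is the 250 bases before the start, 5′ to 3′ on the strand of the gene, with matches to any of 5 motifs on either strand in capitals. Overlapping matches run together. The motifs were TGANTCA (AP-1), TGACGTCA (CRE), GGAAA (core of NFAT sites), GCGTGGGCG (EGR) and an NF-kB type motif of GGG and CC around 5 free bases. The windows lie at chr11:3330481-3330730 on the + strand for Pik3ip1, chr5:34187711-34187960 on the − strand for Mxd4, chr1:153740103-153740352 on the + strand for Rgs16 and chr15:98778151-98778400 on the − strand for Wnt10b.
Pik3ip1: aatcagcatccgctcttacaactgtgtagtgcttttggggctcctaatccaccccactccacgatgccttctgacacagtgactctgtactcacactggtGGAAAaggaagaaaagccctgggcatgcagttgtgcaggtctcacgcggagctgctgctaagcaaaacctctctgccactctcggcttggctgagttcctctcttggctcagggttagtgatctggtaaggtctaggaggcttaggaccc
Mxd4: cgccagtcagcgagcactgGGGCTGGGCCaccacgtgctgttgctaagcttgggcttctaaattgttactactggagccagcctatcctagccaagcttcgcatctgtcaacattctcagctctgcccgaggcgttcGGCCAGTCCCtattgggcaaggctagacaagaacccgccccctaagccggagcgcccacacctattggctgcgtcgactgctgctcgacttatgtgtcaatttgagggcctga
Rgs16: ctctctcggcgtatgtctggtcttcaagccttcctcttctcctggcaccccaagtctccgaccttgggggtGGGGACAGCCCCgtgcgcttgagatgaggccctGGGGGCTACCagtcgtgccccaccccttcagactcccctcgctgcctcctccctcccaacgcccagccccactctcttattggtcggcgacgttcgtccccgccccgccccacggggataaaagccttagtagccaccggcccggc
Wnt10b: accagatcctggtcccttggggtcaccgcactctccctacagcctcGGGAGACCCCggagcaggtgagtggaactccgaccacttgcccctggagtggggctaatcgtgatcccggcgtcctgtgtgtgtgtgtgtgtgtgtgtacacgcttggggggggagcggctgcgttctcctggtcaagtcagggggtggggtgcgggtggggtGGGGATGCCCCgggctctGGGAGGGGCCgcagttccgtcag
Pik3ip1 held 1 GGAAA match and no other. Mxd4 held 2 NF-kB type matches, Rgs16 held 5 and Wnt10b held 7, and none of these 3 held another motif. Matches on either strand and at overlapping positions were each counted, so Rgs16 and Wnt10b hold fewer separate stretches than matches. The NF-kB type motif was found in 62.1% of the 6102 windows of measured genes, 63.2% of those of gained genes and 60.1% of those of lost genes. The AP-1 motif was found in 4.24%, 4.88% and 4.57%, and the GGAAA core in 54.0%, 52.0% and 56.3%. CRE matches were in 2.70%, 1.48% and 1.69%, and EGR matches in 1.05%, 1.14% and 1.35%. A match describes letters in the window and is not evidence of binding.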

How the data were processed

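The deposited files hold array intensity values on a linear scale, 1 per probe set and array, for 5 treatments on 3 chip types. The intensity values were used as deposited; 2% trimmed means differ by at most 0.242% within a chip type, so the authors had scaled the arrays, by a method not given in the sources used here. Groups came from the array titles.

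Of 36701 probe sets 29131 carry 1 gene symbol, 724 several and 6846 none, and 8897 have a suffix (r, i, f, s or g). All probe sets with the same symbol form a gene, whose value is that of the probe set brightest on average over the 5 arrays. Values below the floor were raised to it, and log2 ratios were taken of PKC inhibitor over anti-TCR alone. The minimum was 4 times the floor (204.4, 278 and 220), a call was 2-fold, and a fold against a value at the floor is a lower bound. Technical spread is the SD of differences between readings of a gene on 2 chip types, scaled to a single reading.

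Named genes are the 15 highest and 15 lowest, the 15 highest and 15 lowest by median among genes with every bright probe set past 2-fold, the 3 highest and 3 lowest of each list, all measured members of the PKC and NF-kB lists, and those nearest to 2-fold; others are marked in the text, and the alternatives counting genes with every bright probe set past 2-fold were added after the data were seen. The members and lists were chosen with earlier results of these data known, and some listed genes are not reported here. The steps were tested on simulated data with less noise than the technical spread measured here. That test does not show how often noise alone passes 2-fold in these data. Alternatives were 3 scalings, 3 floors, 8 times the floor or no minimum, the mean of bright probe sets, and suffixed probe sets left out. Python 3.11.15, pandas 2.3.3 and numpy 2.4.6 were used, with matplotlib 3.10.9 for figures.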

Additional observations from a re-analysis of the deposited data

Results flagged for a closer look

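Probe sets with no gene symbol were outside the gene comparisons, and some of them differed as well. Of 1137 bright ones, 91 were at least 2-fold higher with the PKC inhibitor than with anti-TCR alone (8%) and 119 at least 2-fold lower (10.5%). Probe set 97519_at read 122.5 in mock cells, 3175 with anti-TCR alone, 2859 with CSA, 92.4 with the PKC inhibitor and 2409 with Combo, which made it 34.4-fold lower. Probe set 101255_at was 20.1-fold lower, and at 108.9 with the PKC inhibitor it lay far below the 1844 of mock cells. Probe set 133469_at rose from 47.6 to 1018, at least 18.5-fold higher, and 166579_i_at was 8.91-fold higher. Their genes are not named here.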

How the results depend on the processing

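No paired analysis was possible because each treatment was read on a single array of each chip type. With a minimum of 8 times the floor, 467 genes were higher and 371 lower, in place of 827 and 565, since fewer genes were counted. Genes measured numbered 3232 with that minimum and 15964 with none, in place of 5793. By probe set that minimum gave 632 higher and 562 lower, and no minimum gave 1938 and 1450, in place of 1202 and 932. Genes with every bright probe set past 2-fold higher numbered 43 with the 8 times minimum and 42 without suffixed probe sets, in place of 68. The other 56 values of counts stayed within 1.5 times the main count. Slc1a5 turned from a log2 ratio of 1.94 to -0.44 when bright probe sets were averaged and to -2.11 without suffixed probe sets. Of the other values of single genes 2408 moved by less than the technical spread and 64 by more. Of the values of list medians 347 moved by less than that spread and 13 by more; the latter belong to MAP kinase phosphatases and Sprouty genes, cytokines, chemokines, TNF ligands, mitosis and effector genes. Among changed genes 59.4% were higher, and 55.7% to 60.9% over the alternatives. Signal near the floor limits the ratios, since values there have no order, and 1 array per treatment leaves the spread between cultures unknown.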

Other observations

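Autophagy genes form a group that was listed after its values were seen, so its count is a description. Of 21 measured, 6 were higher with the PKC inhibitor and none lower, with a median log2 ratio of 0.44. Of all measured genes 14.3% were higher and 9.75% lower, with a median of 0.03. Genes whose symbols begin in Fam, which names no shared function, had 17 of 59 higher, 4 lower and a median of 0.40. The excess of higher genes is thus not particular to autophagy genes. Rb1cc1, the scaffold of the kinase complex that starts autophagy, read 444 in mock cells, 87.4 with anti-TCR alone, 278 with CSA, 617 with the PKC inhibitor and 270.3 with Combo, and its 3 bright probe sets ran from 1.48 to 2.82. Map1lc3b, which coats the autophagosome membrane, read 584, 119, 177, 599.5 and 523 in the same order, with bright probe sets from 0.39 to 2.33. Nbr1, a cargo receptor, read 316 with the PKC inhibitor against 111 with anti-TCR alone. In these genes anti-TCR alone or CSA was the lowest of the 5 arrays.

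Genes were also grouped by the stem of their symbols after values were seen. Of 31 stems with at least 15 measured genes, some are described here. Of 41 measured Rnf genes, which encode RING finger proteins, 12 were higher (29.3%, beside 14.3% of all measured genes) and 2 lower (4.88%, beside 9.75%), led by Rnf125, with Rnf213 at 1017 against 279. Of 15 measured Klhl genes, adaptors of a cullin ubiquitin ligase, 5 were higher (33.3%) and none lower, among them Klhl6 at 642 against 206. Of 90 measured Zfp genes 20 were higher (22.2%) and 7 lower (7.78%). Similar shares were found for stems that name no shared function. Of 59 measured Fam genes 17 were higher (28.8%) and 4 lower (6.78%). Of 90 measured Tmem genes 19 were higher (21.1%) and 7 lower (7.78%). The excess of higher genes is thus not particular to the Rnf, Klhl and Zfp stems. Genes with symbols that begin in Sec, most of them of protein export, went the other way, with 5 of 16 lower (31.2%, beside 9.75%) and none higher (beside 14.3%). Sec22b read 565 in mock cells, 1858 with anti-TCR alone, 1124 with CSA, 695 with the PKC inhibitor and 1154 with Combo, and both of its bright probe sets passed 2-fold. Sec61a1, of the translocation channel, read 951 with the PKC inhibitor against 2346, again with both bright probe sets past 2-fold.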
